A study of Homo sapiens with 24 samples.

Results

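H1 cells in which ZIC2 had been knocked down were differentiated towards ectoderm for 2 days and set against undifferentiated primed H1 cells. The 2 sets were chosen by their sample labels, 3 knockdown ectoderm libraries and 3 primed control libraries, which make 6 of the 24 libraries in the study. H1 is an established human embryonic stem cell line, and primed cells resemble the epiblast after implantation. The comparison asks how much of the early ectoderm programme still takes place when ZIC2 is lowered. It differs in differentiation and in knockdown at once, and ZIC2 knockdown cells in the primed state were not analysed here. The 3 groups used were ZIC2 knockdown ectoderm at day 2, ectoderm at day 2 with a nontargeting control, and primed cells with a nontargeting control. All 9 libraries came from H1 cells kept in StemFlex medium, all list doxycycline as treatment, and polyadenylated RNA was sequenced from each. How ZIC2 was lowered is not stated in the labels. Nor do they say if libraries of 1 group came from different cultures, and p-values therefore reflect sample-to-sample spread that may be technical. The nontargeting ectoderm shows the same step without the knockdown. Both ectoderm groups were compared with the same 3 primed libraries, so their changes are given side by side and the difference between them was tested directly between the 2 day 2 groups.

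Human embryonic stem cells hold the primed state through POU5F1, NANOG and SOX2 together with Nodal and FGF signals, and they turn to neural ectoderm when Nodal and BMP signals are low. The early neural plate first switches on forebrain factors such as SIX3, HESX1 and OTX2 and neural factors such as SOX1. ZIC proteins are zinc finger transcription factors of the neural plate, and ZIC2 is also present in primed pluripotent cells. In bulk samples, fewer cells of a type and less RNA per cell cannot be told apart.

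Total counts were 10425879, 12163126 and 9735453 in knockdown ectoderm, 6756704, 10111650 and 12006924 in nontargeting ectoderm, and 13175677, 7317419 and 10843152 in primed libraries. Levels are given as CPM, counts scaled to library size with TMM. Changes are log2 values ± SE, fitted by edgeR with its quasi-likelihood test. A gene is called when its Benjamini-Hochberg adjusted p over 15867 tested genes lies below 0.05. The share of counts from mitochondrially encoded genes was 1.68 to 2.12% in knockdown ectoderm, 2.00 to 2.43% in nontargeting ectoderm and 5.82 to 6.09% in primed libraries, and its part in the results was not tested. Levels of POU5F1, NANOG, TDGF1, KRT8, KRT18, PGK1, LDHA, ENO1, ACTA1, ACTC1, ACTA2, MT1G and MT1X are uncertain, since each has close copies in the genome. Reads shared with an overlapping gene are uncertain too, as in LHX5 with LHX5-AS1, ZIC1 with ZIC4, FEZF1 with FEZF1-AS1, KRT8 with KRT18 and DLL1 with FAM120B, because whether reads were counted by strand is unstated in the sources used here.

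The knockdown ectoderm libraries lay between nontargeting ectoderm and primed cells on the main axis of variation. The first principal component held 62.4% of the variance, and on it the knockdown ectoderm libraries lay at −20.9 to −28.3, nontargeting ectoderm at −56.6 to −59.6 and primed libraries at 80.4 to 82.6. The second held 14.4% and set knockdown ectoderm, at 33.4 to 44.9, apart from nontargeting ectoderm, at −24.7 to −32.7, with primed libraries at −7.55 to −10.4. The third, with 5.69%, set nontargeting ectoderm replicate 1 at 42.7, apart from −21.1 and −23.8 in the other nontargeting ectoderm libraries.

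**Figure D1:**
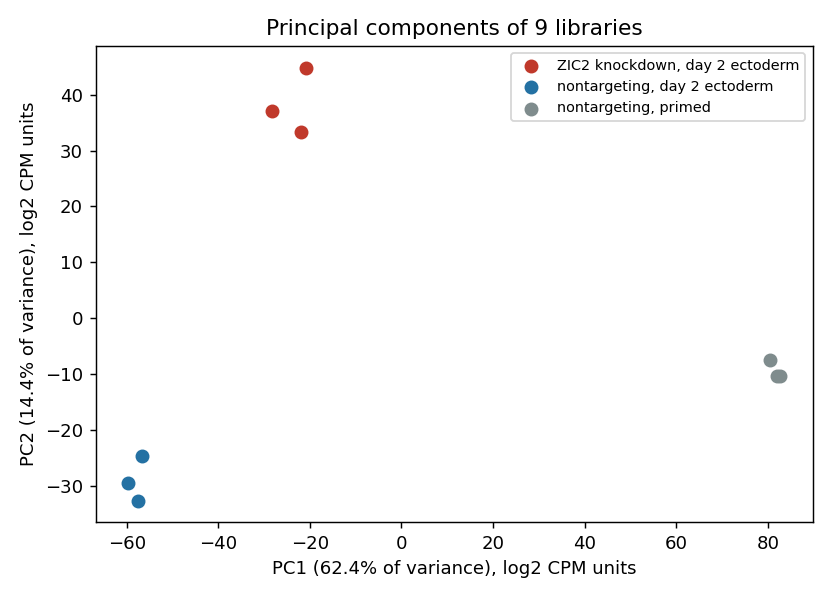
First 2 principal components of log2 CPM in the 9 libraries, 1 point per library, coloured by group; both axes are in log2 CPM units. Knockdown ectoderm lies at −20.9 to −28.3 on the first axis, between nontargeting ectoderm at −56.6 to −59.6 and primed cells at 80.4 to 82.6, and alone at the top of the second axis.

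Against primed cells, 4113 genes (25.9% of those tested) were called higher and 3972 (25%) lower in knockdown ectoderm. With a change of at least 2-fold, 904 (5.7%) were higher and 1427 (8.99%) lower. Nontargeting ectoderm against the same primed libraries gave 4772 genes higher (30.1%) and 4829 lower (30.4%), of which 1111 (7%) and 2226 (14%) changed at least 2-fold. Between the 2 day 2 groups, 2616 genes (16.5%) were called higher and 2148 (13.5%) lower in knockdown ectoderm, with 654 (4.12%) and 263 (1.66%) past 2-fold. In either direction, 51% of genes were called in the first comparison, 60.5% in the second and 30% in the third. All 3 libraries lay above all 3 of the other group for 29.5, 31.9 and 20.7% of genes in the 3 comparisons, and below them for 28.8, 32.7 and 19.4%. These shares are the background for the counts of list members that follow. The median log2 change of all tested genes was 0.0056 in the first comparison, 0.0069 in the second and −0.0052 in the third. Changes followed GC content across genes, with a Spearman correlation of −0.213 for knockdown ectoderm against primed cells, −0.340 for nontargeting ectoderm against primed cells and 0.322 for the direct comparison. Genes are not independent replicates, so no p is attached.

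ZIC2 itself was lower in knockdown than in nontargeting ectoderm but higher than in primed cells. ZIC2 (ENSG00000043355, chromosome 13, 99981772 to 99986773, plus strand, GRCh38) was at 270.4, 269 and 277 CPM in knockdown ectoderm, 635, 559 and 506 CPM in nontargeting ectoderm and 195, 188 and 199 CPM in primed cells. The 3 groups did not overlap, with knockdown ectoderm below every nontargeting ectoderm library and above every primed library. The change was log2 −1.06 ± 0.06 between the day 2 groups (edgeR adjusted p = 2.97e-14) and log2 0.49 ± 0.06 against primed cells (edgeR adjusted p = 2.03e-07). In nontargeting ectoderm ZIC2 was higher than in primed cells by log2 1.54 ± 0.06.

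ZIC1, ZIC4 and ZIC5 rose with differentiation in the knockdown, and ZIC1 and ZIC4 rose less than in nontargeting ectoderm. Each was called higher than in primed cells in both ectoderm groups, where 25.9% of all genes were in the knockdown and 30.1% in nontargeting ectoderm. ZIC1, a partner of ZIC2 in the neural plate and neural crest, was at 191, 168 and 197 CPM in knockdown ectoderm, 320.3, 291 and 279 CPM in nontargeting ectoderm and 6.24, 5.45 and 8.83 CPM in primed cells. Each knockdown library lay far above the primed ones and below each nontargeting ectoderm library (log2 4.74 ± 0.11 against primed, −0.68 ± 0.07 against nontargeting ectoderm; edgeR adjusted p = 2.65e-25 and 1.58e-08). ZIC4, the neighbour of ZIC1, was at 5.79, 6.64 and 5.06 CPM in knockdown ectoderm, 14.5, 16.5 and 16.8 CPM in nontargeting ectoderm and 1.22, 0.681 and 1.29 CPM in primed cells, and was lower than in nontargeting ectoderm by log2 −1.45 (edgeR adjusted p = 2.01e-06). ZIC5, the neighbour of ZIC2, averaged 264 ± 4.59 CPM in knockdown ectoderm, 251 ± 11.7 CPM in nontargeting ectoderm and 92.8 ± 2.02 CPM in primed cells (SD, n = 3 each), and its difference between the day 2 groups was not called (log2 0.07; interval −0.04 to 0.19). Per kilobase of the deposited gene length, ZIC2 averaged 82.7 ± 1.42 RPKM, ZIC5 56.99 ± 0.9895 and ZIC1 27.2 ± 2.28 in knockdown ectoderm. The same order held in nontargeting ectoderm, at 172 ± 19.6 RPKM for ZIC2, 54.2 ± 2.52 for ZIC5 and 43.5 ± 3.14 for ZIC1.

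Forebrain and neural plate factors were switched on in knockdown ectoderm. Of 16 anterior neural plate factors, 10 passed the filter on low counts, and 8 of these were called higher and 1 lower in knockdown ectoderm than in primed cells, where 25.9% and 25% of all genes were. Their median log2 change was 3.27, against 0.0056 over all genes. In nontargeting ectoderm 7 were higher and 1 lower (30.1% and 30.4% of all genes), with a median of 3.71. In the direct comparison, 1 was higher and 4 were lower in knockdown ectoderm (16.5% and 13.5% of all genes), with a median of −0.30. The count of higher members was 2 without knockdown replicate 2, without any 1 of the nontargeting ectoderm or primed libraries, and with no filter on low counts. That of lower members was 3 without knockdown replicate 2 or nontargeting ectoderm replicate 1, and 5 with trends in GC content and gene length removed. In 1 fit of all 18 H1 libraries, 2 were lower than in primed cells. Genes near 0 in primed cells passed the filter through their ectoderm counts, so these counts describe and do not test the list.

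SIX3, a homeobox factor that sets up the forebrain and eye field, was at 173, 178 and 212 CPM in knockdown ectoderm, 212, 201 and 176 CPM in nontargeting ectoderm and 0.228, 0 and 0 CPM in primed cells. The primed libraries held 3 SIX3 counts in all, which puts the ratio of knockdown ectoderm to primed cells at 1948 with an exact binomial interval of 666 to 9447 that covers counting error only. The day 2 groups overlapped, and the difference between them was log2 −0.06 ± 0.08 with an interval of −0.22 to 0.10 (edgeR adjusted p = 0.592). LHX5, a LIM homeobox factor of the early forebrain, was at 124, 87.5 and 97.9 CPM in knockdown ectoderm, 111, 110.0 and 117 CPM in nontargeting ectoderm and 0.152, 0.136 and 0.276 CPM in primed cells. The day 2 libraries overlapped for LHX5 too, at log2 −0.13 ± 0.09 (edgeR adjusted p = 0.287). Without knockdown replicate 1, the highest of the 6, LHX5 was called lower in knockdown ectoderm (log2 −0.28, adjusted p = 0.0137), and with trends in GC content and gene length removed it was as well (log2 −0.41, adjusted p = 6.12e-05).

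Other forebrain factors were higher than in primed cells and lower than in nontargeting ectoderm. OTX2, which patterns forebrain and midbrain, was at 346, 352 and 368 CPM in knockdown ectoderm, 609, 594 and 513 CPM in nontargeting ectoderm and 28.4, 37.3 and 31.4 CPM in primed cells. HESX1, a homeobox repressor of the anterior neural plate, was at 34.4, 31.7 and 37.6 CPM in knockdown ectoderm, 87.3, 86.1 and 76.1 CPM in nontargeting ectoderm and 3.12, 2.59 and 4.41 CPM in primed cells. FEZF1, a zinc finger repressor of the forebrain, was at 152, 147 and 168 CPM in knockdown ectoderm, 298, 274 and 228 CPM in nontargeting ectoderm and 16.9, 18.7 and 14.9 CPM in primed cells. For these 3 genes the knockdown libraries lay apart from both other groups. The knockdown ectoderm was higher than primed cells by log2 3.48 ± 0.08 for OTX2, 3.32 ± 0.15 for HESX1 and 3.22 ± 0.10 for FEZF1 (edgeR adjusted p = 3.46e-25, 7.94e-18 and 3.28e-22). It was lower than nontargeting ectoderm by log2 −0.69 ± 0.07, −1.27 ± 0.11 and −0.77 ± 0.08 (edgeR adjusted p = 1.19e-09, 5.42e-11 and 2.84e-09). DMBX1, a homeobox gene of the anterior brain, was at 4.64 ± 0.742 CPM in knockdown ectoderm, 8.199 ± 2.42 CPM in nontargeting ectoderm and 2.03 ± 0.654 CPM in primed cells, and was the fourth member called lower between the day 2 groups (log2 −0.79).

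A few members of the list did something else. FEZF2, a relative of FEZF1 that marks forebrain progenitors, was at 1.42, 3.03 and 1.86 CPM in knockdown ectoderm and had no counts in nontargeting ectoderm or primed cells. Against a floor of 3 counts over a group, it was at least 20.6-fold higher in knockdown than in nontargeting ectoderm and at least 22.6-fold higher than in primed cells, which covers counting error only. SIX6, an eye field gene below the filter, averaged 0.9800 CPM in knockdown ectoderm, 0.0333 CPM in nontargeting ectoderm and 0 in primed cells. PAX6, the neuroectoderm factor often used as a marker of later neural cells, averaged 1.604 ± 0.343 CPM in knockdown ectoderm, 2.29 ± 1.07 CPM in nontargeting ectoderm and 0.208 ± 0.114 CPM in primed cells, with no call between the day 2 groups. SP8 was the member called lower in knockdown ectoderm than in primed cells (60.7 CPM against 80.9 CPM), and OTX1 was not called. RAX had no counts in any of the 9 libraries, and LHX2 and EMX2 were at 0.127 CPM or less in each group. The letters CCTGCTG, the core of a ZIC motif, were searched on both strands of the 250 bases before the RefSeq start and were found in 0 of 7 anterior and 0 of 11 early neural genes with an entry, against 8.39% of 27305 promoters. TGGGTGG, a core that ZIC and GLI factors share, was found in 1 of the 7 (PAX6, 150 bases before the start) and 0 of the 11, against 8.02% of promoters, and a window without a match says no more than that these letters are not in it. By their levels the libraries labelled ectoderm carried transcripts of the anterior neural plate.

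Most tested early neural ectoderm genes were higher in knockdown ectoderm than in primed cells, and many were lower than in nontargeting ectoderm. Of 20 members 16 passed the filter. In knockdown ectoderm 14 were called higher and 0 lower than in primed cells (25.9% and 25% of all genes), with a median log2 change of 2.29. In nontargeting ectoderm 15 were higher and 1 lower (30.1% and 30.4% of all genes), with a median of 2.83. Set against nontargeting ectoderm, 3 were higher (16.5% of all genes) and 10 lower (13.5% of all genes) in knockdown ectoderm, with a median of −0.64 against −0.0052 over all genes. Both calls, higher than primed and lower than nontargeting ectoderm, were made for 8 of the 16. With GC and length trends removed, 1 member was called lower than in primed cells. Some members had few or no counts in primed cells, with 0 for ZEB2 and 2 each for SOX1 and NR2F2. Such genes passed the filter through their ectoderm counts, so the numbers called describe and do not test the list.

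SOX1, one of the first markers of neural commitment, was at 17.5, 14.4 and 16.1 CPM in knockdown ectoderm, 12.1, 10.2 and 14.2 CPM in nontargeting ectoderm and 0, 0 and 0.184 CPM in primed cells. Primed libraries held 2 SOX1 counts, for a ratio of 250 with a counting interval of 68.7 to 2066. All 3 knockdown libraries lay above the nontargeting ectoderm ones, but the difference was not called (log2 0.39 ± 0.19; interval −0.00055 to 0.78; edgeR adjusted p = 0.126). SOX21, a SOX factor that limits neural progenitor state, was at 128, 114 and 122 CPM in knockdown ectoderm, 141, 116 and 131 CPM in nontargeting ectoderm and 14.01, 13.2 and 9.75 CPM in primed cells, and the day 2 groups overlapped (log2 −0.09 ± 0.08; interval −0.26 to 0.08).

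ZEB2, a SMAD-binding repressor needed for neural plate formation, was at 44.03, 42.6 and 46.8 CPM in knockdown ectoderm and 136, 135 and 120.4 CPM in nontargeting ectoderm, with no counts in primed cells. Its level in knockdown ectoderm was at least 463-fold above the floor of 3 counts in primed cells. The knockdown libraries were nonetheless all well below the nontargeting ectoderm ones, by log2 −1.55 ± 0.09 (edgeR adjusted p = 2.25e-14). POU3F1, a POU factor that promotes neural fate, was at 33.4, 31.1 and 32.4 CPM in knockdown ectoderm, 88.6, 70.6 and 67.2 CPM in nontargeting ectoderm and 3.88, 4.91 and 5.702 CPM in primed cells. ZNF521, a zinc finger factor that drives neural conversion of stem cells, was at 43.9, 45.8 and 47.8 CPM in knockdown ectoderm, 104, 97.9 and 81.4 CPM in nontargeting ectoderm and 20.8, 18.3 and 19.96 CPM in primed cells. Both lay between the other groups without overlap, higher than in primed cells by log2 2.75 ± 0.15 and 1.21 ± 0.10 and lower than in nontargeting ectoderm by log2 −1.22 ± 0.11 and −1.03 ± 0.09 (edgeR adjusted p = 4.67e-10 and 2.7e-10). DLK1, a Notch-related ligand, was at 12.1, 9.02 and 7.13 CPM in knockdown ectoderm, 35.4, 33.03 and 34.5 CPM in nontargeting ectoderm and 1.599, 3.13 and 3.22 CPM in primed cells, log2 −1.86 between the day 2 groups. PRTG, an adhesion receptor of early neural tissue, and NCAM1, a neural adhesion molecule, were higher than in primed cells by log2 2.70 and 1.41 and lower than in nontargeting ectoderm by log2 −0.59 and −0.69.

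CDH2 (N-cadherin), which replaces E-cadherin as the neural plate forms, was not called higher in knockdown ectoderm than in primed cells. It was at 87.02, 101 and 90.3 CPM in knockdown ectoderm, 169, 179 and 159.6 CPM in nontargeting ectoderm and 99.8, 89.1 and 98.3 CPM in primed cells. Knockdown and primed libraries overlapped (log2 −0.05 ± 0.07; interval −0.20 to 0.10; edgeR adjusted p = 0.601), while knockdown ectoderm was below nontargeting ectoderm by log2 −0.86 ± 0.07 (edgeR adjusted p = 3.54e-11). CDH1 (E-cadherin) averaged 786 ± 26.7 CPM in knockdown ectoderm, 794 ± 9.33 CPM in nontargeting ectoderm and 726 ± 6.29 CPM in primed cells, and was called higher than in primed cells in both ectoderm groups. GPM6A, a neuronal membrane protein, was the other early neural gene not called against primed cells, at 8.93 ± 0.6197 CPM in knockdown ectoderm, 17.8 ± 5.59 CPM in nontargeting ectoderm and 11.5 ± 0.873 CPM in primed cells.

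The 3 early neural genes called higher in knockdown than in nontargeting ectoderm were MEIS2, SOX3 and NES. MEIS2, a homeobox cofactor, was at 8.07, 5.25 and 8.37 CPM in knockdown ectoderm, 1.33, 2.29 and 1.36 CPM in nontargeting ectoderm and 0.685, 0.136 and 0 CPM in primed cells (log2 2.10 ± 0.40 between the day 2 groups; edgeR adjusted p = 0.000147). SOX3, a SOX factor of neural progenitors, was at 34.1, 29.5 and 31.4 CPM in knockdown ectoderm, 15.7, 12.6 and 13.6 CPM in nontargeting ectoderm and 23.1, 25.8 and 21.4 CPM in primed cells, so the knockdown libraries were the highest of the 9 and the nontargeting ectoderm libraries the lowest. NES (nestin), an intermediate filament of neural progenitors, averaged 704 ± 28.03 CPM in knockdown ectoderm, 549 ± 66.7 CPM in nontargeting ectoderm and 495 ± 16.8 CPM in primed cells. POU3F2, POU3F3 and MEIS1 were below the filter at 0.459 CPM or less in each group, and NR2F1 had no counts.

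**Figure D2:**
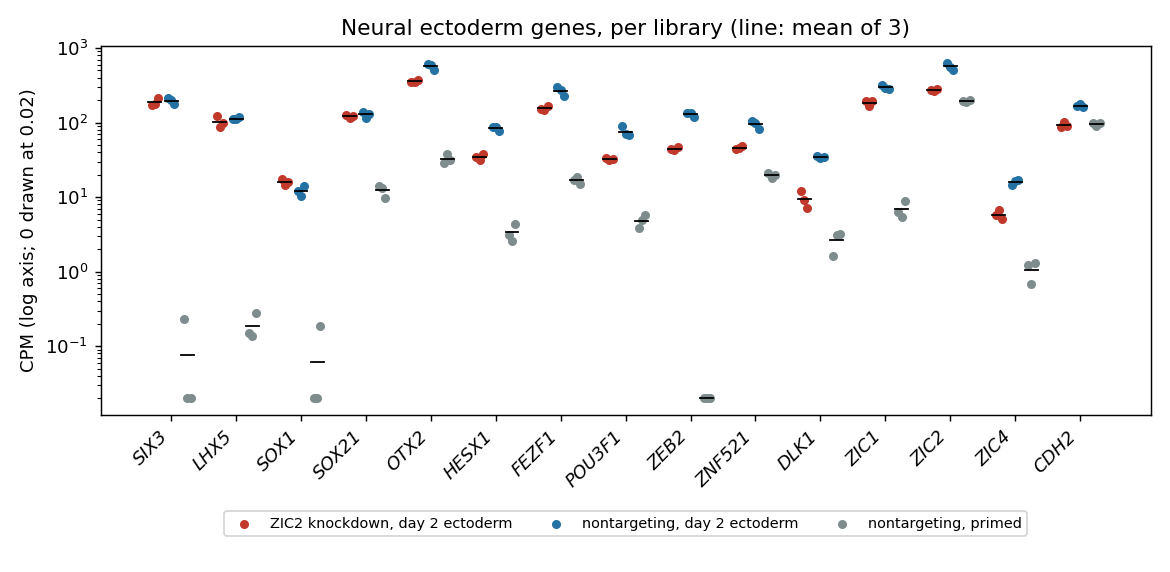
CPM of 15 neural ectoderm and ZIC genes on a log axis (0 drawn at 0.02), 1 point per library in 3 groups, with a line at the mean of 3. SIX3, LHX5, SOX1 and SOX21 were not called between the ectoderm groups, while OTX2, HESX1, FEZF1, POU3F1, ZEB2, ZNF521, DLK1, ZIC1, ZIC2 and ZIC4 in knockdown ectoderm lie below nontargeting ectoderm and above primed cells, and CDH2 in knockdown ectoderm overlaps primed cells.

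Most neuronal genes were not called against primed cells. Of 10 members 6 passed the filter, and 1 was called higher and 0 lower in knockdown ectoderm than in primed cells (25.9% and 25% of all genes). With GC and length trends removed 2 were called higher, TUBB3 being the second (log2 0.66, adjusted p = 0.0128), and with all 18 H1 libraries in 1 fit 1 was lower. The gene called throughout was STMN2, a microtubule regulator of growing neurites, at 151, 146 and 149 CPM in knockdown ectoderm, 374, 323 and 302 CPM in nontargeting ectoderm and 52.99, 53.4 and 53.9 CPM in primed cells. It was lower in knockdown than in nontargeting ectoderm by log2 −1.16 ± 0.07 (edgeR adjusted p = 1.04e-14). TUBB3, ELAVL3 and INSM1 were called higher in knockdown than in nontargeting ectoderm, each from low levels, with TUBB3 at 9.92 ± 1.17 CPM in knockdown ectoderm and 4.78 ± 1.803 CPM in nontargeting ectoderm. The proneural genes NEUROG1 and NEUROG2 had no counts.

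Of 18 genes of midbrain, hindbrain and posterior identity, 8 passed the filter. In knockdown ectoderm 2 were called higher and 4 lower than in primed cells (25.9% and 25% of all genes). Against nontargeting ectoderm 2 were higher and 0 lower (16.5% and 13.5% of all genes). GBX2 was at 2.28 CPM in knockdown ectoderm, 0.570 in nontargeting ectoderm and 8.17 in primed cells (log2 1.85 between the day 2 groups). FGF8 was the other, at log2 1.26 with overlapping libraries. Its call was lost without knockdown replicate 1 (log2 0.90) or with GC and length trends removed (log2 0.76). CYP26A1, which degrades retinoic acid and marks the anterior neural plate early on, was at 87.7, 60.3 and 52.8 CPM in knockdown ectoderm, 60, 50.9 and 61.95 CPM in nontargeting ectoderm and 0.609, 1.09 and 0.9196 CPM in primed cells. The day 2 libraries overlapped and the difference was not called (log2 0.22 ± 0.13), though without knockdown replicate 3 it was (log2 0.36, adjusted p = 0.0323). IRX3, a homeobox gene of the posterior forebrain and midbrain, averaged 6.900 ± 0.259 CPM in knockdown ectoderm, 8.398 ± 1.66 CPM in nontargeting ectoderm and 0.407 ± 0.235 CPM in primed cells. With GC and length trends removed, IRX3 was called lower in knockdown than in nontargeting ectoderm (log2 −0.70, edgeR adjusted p = 0.0314). EN1, EN2, HOXA2 and CDX2 had no counts in the 9 libraries.

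Most core pluripotency genes were lower in knockdown ectoderm than in primed cells. Of 18 core genes, all tested, 11 were called lower and 5 higher there (25% and 25.9% of all genes), with a median log2 change of −0.69. In nontargeting ectoderm 12 were lower and 5 higher (30.4% and 30.1% of all genes), with a median of −1.14. Between the day 2 groups 6 were higher and 5 lower in knockdown ectoderm (16.5% and 13.5% of all genes), with a median of −0.01.

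POU5F1 (OCT4) was at 437, 424 and 404 CPM in knockdown ectoderm, 401, 451 and 507 CPM in nontargeting ectoderm and 1483, 1473 and 1348 CPM in primed cells. Both ectoderm groups lay far below primed cells (log2 −1.77 ± 0.06 in knockdown and −1.66 ± 0.06 in nontargeting ectoderm) and overlapped each other (log2 −0.11 ± 0.06; edgeR adjusted p = 0.21, or 0.0147 at log2 −0.19 without nontargeting ectoderm replicate 1). NANOG, its partner in the network, was at 6.07, 10.6 and 7.75 CPM in knockdown ectoderm, 4.296, 3.69 and 3.99 CPM in nontargeting ectoderm and 135, 134 and 137 CPM in primed cells. The knockdown libraries were all above the nontargeting ectoderm ones (log2 1.05 ± 0.18; edgeR adjusted p = 4.52e-05), at a small share of the primed level (log2 −4.04 ± 0.12). TERF1, a telomere-binding protein high in stem cells, and PRDM14, a repressor that guards pluripotency, were lower in both ectoderm groups than in primed cells, and lowest in the knockdown. TERF1 was at 204, 230.3 and 204 CPM in knockdown ectoderm, 283, 268 and 286 CPM in nontargeting ectoderm and 787, 830.2 and 774 CPM in primed cells, and PRDM14 averaged 35.9 ± 3.69 CPM in knockdown ectoderm, 46.1 ± 3.95 CPM in nontargeting ectoderm and 122 ± 1.35 CPM in primed cells.

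TDGF1 (CRIPTO), the co-receptor for Nodal, stood out in the list. It was at 178, 213 and 200.2 CPM in knockdown ectoderm, 7.704, 5.39 and 6.87 CPM in nontargeting ectoderm and 948, 891 and 909 CPM in primed cells. Knockdown libraries were thus well below primed ones (log2 −2.22 ± 0.06; edgeR adjusted p = 9.85e-23) and far above nontargeting ectoderm (log2 4.91 ± 0.10; edgeR adjusted p = 3.47e-26). SOX2, which serves both pluripotent and neural cells, averaged 555 ± 35.8 CPM in knockdown ectoderm, 786 ± 74.97 CPM in nontargeting ectoderm and 406 ± 8.82 CPM in primed cells, higher than in primed cells and lower than in nontargeting ectoderm (log2 0.45 ± 0.06 and −0.50 ± 0.06). LIN28A, an RNA-binding protein of early progenitors, moved the same way, at 3278 ± 115 CPM in knockdown ectoderm, 4179.6 ± 108 CPM in nontargeting ectoderm and 1977 ± 20.1 CPM in primed cells. PODXL, a surface sialomucin of stem cells, was called higher in knockdown ectoderm at 3178 ± 103 CPM and lower in nontargeting ectoderm at 2003 ± 47.8 CPM than in primed cells at 2781 ± 15.03 CPM.

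Most Nodal signalling genes were far lower in knockdown ectoderm than in primed cells. Of 12 members 11 passed the filter. In knockdown ectoderm 7 were called lower and 2 higher than in primed cells (25% and 25.9% of all genes), with a median log2 change of −3.16. In nontargeting ectoderm 8 were lower and 3 higher (30.4% and 30.1% of all genes), with a median of −5.08. In the direct comparison, 5 were higher and 1 lower in knockdown ectoderm (16.5% and 13.5% of all genes). The number higher was 3 without nontargeting ectoderm replicate 3, and 3 of 8 tested with only the 2 groups in the fit. The number lower was 2 with GC and length trends removed. The median of that difference was 1.90, or 0.44 with LEFTY1, which had no counts in nontargeting ectoderm, set to its bound.

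NODAL, the ligand, was at 1.23, 1.72 and 1.03 CPM in knockdown ectoderm, 0.741, 0.0998 and 0.339 CPM in nontargeting ectoderm and 19.4, 23.3 and 22.2 CPM in primed cells. LEFTY2, a secreted Nodal antagonist and target, was at 1.04, 0.4101 and 0.3100 CPM in knockdown ectoderm, 0.296, 0.0998 and 0.0849 CPM in nontargeting ectoderm and 10.8, 11.6 and 11.7 CPM in primed cells. Both were low in the 2 ectoderm groups and higher in all 3 knockdown than in all 3 nontargeting ectoderm libraries (log2 1.90 ± 0.48 and 1.97 ± 0.72; edgeR adjusted p = 0.003 and 0.0374). LEFTY1, a second antagonist, was at 0.285, 0.08201 and 0 CPM in knockdown ectoderm and 9.37, 9.402 and 9.196 CPM in primed cells. GDF3, a ligand of the same pathway, was at 1.42, 1.56 and 1.45 CPM in knockdown ectoderm, 0.889, 1.297 and 1.02 CPM in nontargeting ectoderm and 35.9, 39.8 and 35.5 CPM in primed cells, with no call between the day 2 groups. SMAD7, an inhibitory SMAD, averaged 2.72 ± 0.437 CPM in knockdown ectoderm, 3.68 ± 0.305 CPM in nontargeting ectoderm and 35.05 ± 4.81 CPM in primed cells, and was not called between the day 2 groups, except with GC and length trends removed (log2 −0.64, adjusted p = 0.0379). The receptor gene ACVR1B was higher in both ectoderm groups, at 70.7 ± 4.88 CPM in knockdown ectoderm, 71.3 ± 3.07 CPM in nontargeting ectoderm and 40.4 ± 1.97 CPM in primed cells.

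FGF and ERK genes, a list of ligands, receptors and pathway targets, had a smaller median fall in knockdown than in nontargeting ectoderm. All 18 members were tested. In knockdown ectoderm 12 were called lower and 5 higher than in primed cells (25% and 25.9% of all genes). Their median log2 change was −0.66. In nontargeting ectoderm 12 were lower and 3 higher (30.4% and 30.1% of all genes), with a median of −1.39. Set against nontargeting ectoderm, 13 were higher and 1 lower in the knockdown, with a median of 0.60, where 16.5% and 13.5% of all genes were called.

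DUSP6, a phosphatase that limits ERK and is induced by it, was at 8.45, 9.27 and 8.16 CPM in knockdown ectoderm, 1.63, 0.299 and 0.679 CPM in nontargeting ectoderm and 54.5, 46.3 and 52.1 CPM in primed cells. SPRY4, a feedback inhibitor of the pathway, was at 63.96, 58.6 and 66.9 CPM in knockdown ectoderm, 12.1, 8.78 and 10.2 CPM in nontargeting ectoderm and 180.4, 173 and 176 CPM in primed cells. ETV5, an ETS factor induced by FGF, was at 25.1, 34.3 and 29.1 CPM in knockdown ectoderm, 4.296, 4.49 and 3.99 CPM in nontargeting ectoderm and 72.9, 66.4 and 69.7 CPM in primed cells. In each of these the knockdown libraries lay between primed and nontargeting ectoderm without overlap, lower than primed by log2 −2.56 ± 0.16, −1.48 ± 0.08 and −1.24 ± 0.11 and higher than nontargeting ectoderm by log2 3.46 ± 0.28, 2.63 ± 0.10 and 2.80 ± 0.15 (edgeR adjusted p = 3.18e-11, 1.24e-18 and 2.69e-15). EGR1, an immediate early gene, and ETV4, a relative of ETV5, followed the same order, at log2 1.42 and 1.24 between the day 2 groups. FGF2, the ligand, was at 156, 179.5 and 151 CPM in knockdown ectoderm, 57.3, 65.4 and 70.95 CPM in nontargeting ectoderm and 136, 138 and 138 CPM in primed cells. It was called higher in knockdown ectoderm than in primed cells by a small margin (log2 0.24 ± 0.07; edgeR adjusted p = 0.006), a call lost without knockdown replicate 2 (log2 0.17, adjusted p = 0.0812) and with GC and length trends removed (log2 0.04, adjusted p = 0.631). Against nontargeting ectoderm it was higher by log2 1.32 ± 0.08. DUSP4, another ERK phosphatase, went the other way from DUSP6, at 82.97 ± 5.31 CPM in knockdown ectoderm, 92.3 ± 7.53 CPM in nontargeting ectoderm and 17.3 ± 0.755 CPM in primed cells.

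BMP genes were mixed. Of 14 members 11 passed the filter, and 3 were called higher and 5 lower in knockdown ectoderm than in primed cells, against 3 and 6 in nontargeting ectoderm. The shares over all genes were 25.9% and 25% in knockdown ectoderm and 30.1% and 30.4% in nontargeting ectoderm. ID1, a direct BMP target, was at 1.52, 2.62 and 0.3100 CPM in knockdown ectoderm, 0.889, 0.698 and 0.764 CPM in nontargeting ectoderm and 52.4, 47.3 and 52.2 CPM in primed cells, so it was near 0 in both ectoderm groups. ID1 was not called between the day 2 groups, except without knockdown replicate 3 (log2 1.44, adjusted p = 0.00283). ID3, a related target, was at 44.03, 34.1 and 48.9 CPM in knockdown ectoderm, 18.2, 13.97 and 13.7 CPM in nontargeting ectoderm and 50.5, 50.01 and 51.04 CPM in primed cells. It was not called against primed cells (log2 −0.26 ± 0.12; edgeR adjusted p = 0.0616, or 0.0155 at log2 −0.37 without knockdown replicate 3 and 0.0459 at log2 −0.26 without nontargeting ectoderm replicate 1) and was above nontargeting ectoderm (log2 1.49 ± 0.13; edgeR adjusted p = 1.81e-10). ID3 was also called against primed cells with the replicate number as a block (adjusted p = 0.0427) and with only the 2 groups in the fit (0.0372). BMP2, a ligand, was at 44.8, 46.7 and 49.6 CPM in knockdown ectoderm, 120.4, 124 and 121 CPM in nontargeting ectoderm and 4.87, 7.63 and 5.61 CPM in primed cells, raised in both ectoderm groups and less so in the knockdown (log2 −1.38 ± 0.09). BMP4, another ligand, ran the other way, at 15.2 ± 1.45 CPM in knockdown ectoderm, 6.01 ± 0.837 CPM in nontargeting ectoderm and 22.8 ± 1.19 CPM in primed cells.

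WNT, Hedgehog and retinoid lists showed no single direction, and neither did NOTCH. Over all genes, 25.9% were called higher and 25% lower in knockdown ectoderm than in primed cells. Of 13 WNT genes tested of 16, 5 were called higher and 7 lower in knockdown ectoderm than in primed cells, the same counts as in nontargeting ectoderm. SFRP1, a secreted WNT antagonist, was at 1103, 1074 and 1094 CPM in knockdown ectoderm, 1634, 1591 and 1649.9 CPM in nontargeting ectoderm and 219, 224 and 215 CPM in primed cells, higher than in primed cells by log2 2.32 ± 0.05 and lower than in nontargeting ectoderm by log2 −0.58 ± 0.05. FZD7, a WNT receptor, was at 733, 646 and 629 CPM in knockdown ectoderm, 423, 385 and 426 CPM in nontargeting ectoderm and 165, 156 and 154 CPM in primed cells, and was highest in the knockdown. Of 10 Hedgehog genes tested of 11, 5 were higher and 1 lower than in primed cells, and that 1 call was lost without knockdown replicate 1 or 2, without primed replicate 1 or 3, with no filter on low counts and with GC and length trends removed. PTCH1, the Hedgehog receptor and a target of the pathway, was at 165, 161 and 157 CPM in knockdown ectoderm, 81.8, 99.3 and 84.8 CPM in nontargeting ectoderm and 72.4, 79.6 and 77.7 CPM in primed cells, and all 3 knockdown libraries were above the other 6 (log2 0.86 ± 0.07 against nontargeting ectoderm). GLI1, another target, averaged 26.8 ± 3.43 CPM in knockdown ectoderm, 19.00 ± 2.29 CPM in nontargeting ectoderm and 29.5 ± 2.57 CPM in primed cells, and SHH, a ligand, was at 0.0708 CPM or less in each group.

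Of 11 NOTCH genes tested of 13, 4 were called higher and 4 lower in knockdown ectoderm than in primed cells (25.9% and 25% of all genes). HES1, a NOTCH-induced repressor, was at 72.2, 54.2 and 61.5 CPM in knockdown ectoderm, 87.3, 70.4 and 70.95 CPM in nontargeting ectoderm and 8.604, 8.04 and 8.09 CPM in primed cells. The day 2 libraries overlapped, and the small difference (log2 −0.28 ± 0.10; edgeR adjusted p = 0.0365) was lost without knockdown replicate 2 (adjusted p = 0.236), knockdown replicate 3 (0.0859) or nontargeting ectoderm replicate 1 (0.223) and under 4 other settings (0.0517 to 0.0983). DLL1, a NOTCH ligand, was at 9.01, 6.56 and 5.27 CPM in knockdown ectoderm, 0.741, 0.998 and 1.02 CPM in nontargeting ectoderm and 6.55, 6.404 and 8.64 CPM in primed cells. NOTCH1, a receptor, was at 99.4, 57.6 and 66.4 CPM in knockdown ectoderm, 31.4, 31.5 and 28.1 CPM in nontargeting ectoderm and 74.1, 64.6 and 74.9 CPM in primed cells. Neither was called against primed cells (log2 −0.05 and 0.06; removing GC and length trends brought NOTCH1 to a called 0.35), and both were above nontargeting ectoderm by log2 2.87 ± 0.33 and 1.30 ± 0.13. Of 8 retinoid genes tested of 11, 4 were higher and 3 lower than in primed cells. CYP26C1, another retinoic acid hydroxylase, averaged 1.07 ± 0.219 CPM in knockdown ectoderm, 6.02 ± 0.8895 CPM in nontargeting ectoderm and 0.0307 ± 0.0531 CPM in primed cells, and was lower in all 3 knockdown than in all 3 nontargeting ectoderm libraries (log2 −2.50 ± 0.40). CRABP1, a retinoic acid binding protein, was lowest in the knockdown, at 97.1, 88.7 and 95.4 CPM there, 185, 179 and 163 CPM in nontargeting ectoderm and 259, 248 and 248 CPM in primed cells.

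Genes of surface ectoderm were higher in knockdown than in nontargeting ectoderm, from mixed positions against primed cells. Of 16 members 11 passed the filter. In knockdown ectoderm 5 were called higher and 3 lower than in primed cells (25.9% and 25% of all genes), and in nontargeting ectoderm 3 and 7 (30.1% and 30.4%). Between the day 2 groups 8 were higher and 0 lower in knockdown ectoderm (16.5% and 13.5% of all genes), with a median log2 difference of 1.13. With GC and length trends removed, 1 was lower in knockdown than in nontargeting ectoderm. The summed level of the 16 genes was 1132 to 1166 CPM in knockdown ectoderm, 546 to 598 CPM in nontargeting ectoderm and 1085 to 1159 CPM in primed libraries. Most of that sum came from EPCAM, KRT8 and KRT18, which averaged 474, 302 and 174 CPM in knockdown ectoderm. Primed cells held these genes at 162, 452 and 332 CPM, so the sum is not particular to surface ectoderm. The factors TFAP2A, TFAP2B and TP63 were at 0.163 CPM or less in each group. TFAP2C, another AP-2 factor and one that stem cells also carry, averaged 56.99 ± 2.24 CPM in knockdown ectoderm, 43.4 ± 6.11 CPM in nontargeting ectoderm and 35.3 ± 4.67 CPM in primed cells, called higher than in primed cells (log2 0.70) and than in nontargeting ectoderm (log2 0.41). What part cells of this type had in other results was not tested.

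EPCAM, an epithelial adhesion molecule, was at 464, 475 and 483 CPM in knockdown ectoderm, 205, 208 and 227 CPM in nontargeting ectoderm and 163, 161 and 160.2 CPM in primed cells, and was highest in the knockdown (log2 1.15 ± 0.06 against nontargeting ectoderm; edgeR adjusted p = 2.34e-16). KRT8, a keratin of simple epithelia, was at 319, 286 and 302 CPM in knockdown ectoderm, 125, 134 and 154 CPM in nontargeting ectoderm and 467, 446 and 444 CPM in primed cells, so the knockdown libraries lay between the other groups. GRHL3, a factor of surface ectoderm that acts in neural tube closure, was at 5.41, 5.82 and 6.41 CPM in knockdown ectoderm, 0, 0.599 and 0.594 CPM in nontargeting ectoderm and 1.903, 1.77 and 1.38 CPM in primed cells. GATA3, a factor of surface ectoderm and trophoblast, was at 2.85, 2.21 and 1.55 CPM in knockdown ectoderm and 0.533, 0.954 and 0.368 CPM in primed cells, with no counts in nontargeting ectoderm. It was at least 21.1-fold higher in knockdown ectoderm than the floor of 3 counts in nontargeting ectoderm. DLX5, below the filter, averaged 1.22 CPM in knockdown ectoderm, 0.0283 CPM in nontargeting ectoderm and 0 in primed cells. DLX3 and KRT7, with GRHL2, were not called between the day 2 groups.

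Neural crest and border genes gave 3 higher and 1 lower of 7 tested of 12 against primed cells, and 5 higher and 0 lower in knockdown than in nontargeting ectoderm, or 3 of 6 tested with only those 2 groups in the fit. The shares over all genes were 25.9% and 25% against primed cells and 16.5% and 13.5% between the day 2 groups. SOX9, a factor of crest and neural progenitors, was at 73.4, 70.2 and 71.5 CPM in knockdown ectoderm, 53.9, 45 and 50.4 CPM in nontargeting ectoderm and 18.5, 16.2 and 14.8 CPM in primed cells (log2 0.53 ± 0.09 between the day 2 groups). PAX7, a neural border factor, averaged 2.11 ± 0.3996 CPM in knockdown ectoderm, 0.407 ± 0.102 CPM in nontargeting ectoderm and 0.0761 ± 0.132 CPM in primed cells. The 3 PAX7 counts in primed cells gave a ratio of 21.9 for knockdown ectoderm, with a counting interval of 7.19 to 109. ETS1 was lower than in primed cells in both ectoderm groups (16.7 CPM in knockdown ectoderm, 12.4 in nontargeting ectoderm and 139.9 in primed cells). Its call between the day 2 groups was lost without knockdown replicate 2 (adjusted p = 0.380) and without nontargeting ectoderm replicate 1 (0.0691) or 3 (0.136), with DESeq2 (0.141) and with only the 2 groups in the fit (0.109). TWIST1, MSX1, PAX3 and SNAI2 were below the filter, at 0.594 CPM or less in each group.

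Mesoderm, endoderm and trophoblast genes were near 0 in most cases. Over all genes, 25.9% were called higher and 25% lower in knockdown ectoderm than in primed cells. Of 12 mesendoderm and mesoderm genes 5 were tested, and 0 were called higher and 2 lower in knockdown ectoderm than in primed cells. KDR, a VEGF receptor, was at 39.9, 46.1 and 39.8 CPM in knockdown ectoderm, 70.2, 58.9 and 63.5 CPM in nontargeting ectoderm and 299.5, 308 and 302 CPM in primed cells, lower in both ectoderm groups and lowest in the knockdown (log2 −0.60 ± 0.08). The mesoderm factor TBXT was at 1.17 ± 0.486 CPM in knockdown ectoderm, and EOMES, GSC, MESP1 and HAND1 were at 0.631 CPM or less in each group. Of 9 endoderm genes 4 were tested, 2 higher and 2 lower. HHEX, an endoderm gene that was raised here, averaged 11.6 ± 1.95 CPM in knockdown ectoderm, 10.9 ± 1.48 CPM in nontargeting ectoderm and 0.762 ± 0.136 CPM in primed cells, while SOX17 had no counts and FOXA2 was at 0.478 CPM or less. Of 12 trophoblast and amnion genes 5 were tested, 2 higher and 2 lower in knockdown ectoderm than in primed cells. In the direct comparison, 4 were higher and 1, IGFBP3, was lower in the knockdown (16.5% and 13.5% of all genes), or 2 and 1 of 3 tested with only the 2 groups in the fit. Of the 4, TBX3 rested on 8 counts against 0 in nontargeting ectoderm. Its call was lost without knockdown replicate 1 (edgeR adjusted p = 0.0674) or 3 (0.0996). It was also lost without any 1 of the nontargeting ectoderm libraries (0.0629 to 0.0971). The median difference of the 5 tested genes between the day 2 groups was 4.42, or 3.35 with GATA3 and TBX3 set to their bounds. GABRP, a GABA receptor subunit, averaged 4.26 ± 0.575 CPM in knockdown ectoderm, 0.144 ± 0.0574 CPM in nontargeting ectoderm and 12.7 ± 0.688 CPM in primed cells (log2 4.80 ± 0.45 between the day 2 groups), lower than in primed cells in both. IGFBP3, an IGF carrier, was at 29.4, 29.7 and 23.4 CPM in knockdown ectoderm, 62.5, 60.7 and 61.6 CPM in nontargeting ectoderm and 7.39, 6.404 and 7.45 CPM in primed cells. CGA, CDX2, ELF5 and HAND1 of the trophoblast and amnion list had no counts. HAND1 also stands in the mesoderm list and CDX2 in the posterior list.

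Of 9 fibroblast and mesenchyme genes 6 were tested. In knockdown ectoderm 0 were called higher and 5 lower than in primed cells (25.9% and 25% of all genes). Against nontargeting ectoderm 3 were higher and 0 lower (16.5% and 13.5% of all genes). Without primed replicate 1, 3 were lower than in primed cells, and with GC and length trends removed 2 were higher and 1 lower than in nontargeting ectoderm. Their summed level was 325 to 349 CPM in knockdown ectoderm, 222 to 235 CPM in nontargeting ectoderm and 734 to 752 CPM in primed libraries. THY1, a surface glycoprotein that stem cells also carry, was at 75.2 ± 9.66 CPM in knockdown ectoderm, 59.9 ± 4.03 CPM in nontargeting ectoderm and 419.5 ± 1.76 CPM in primed cells. COL3A1, LUM and DCN were at 0.0254 CPM or less in each group, and the part of this list in other results was not tested.

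Transcripts of the p53 response were higher in knockdown ectoderm than in either other group. Of 13 targets, all tested, 12 were called higher and 0 lower than in primed cells, with a median log2 change of 1.31, against 25.9% and 25% of all genes. Nontargeting ectoderm gave 4 higher and 4 lower (30.1% and 30.4% of all genes), with a median of 0.0043. Against nontargeting ectoderm 11 were higher and 0 lower in the knockdown (16.5% and 13.5% of all genes), with a median of 1.12.

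CDKN1A (p21), an inhibitor of cell cycle kinases, was at 66.1, 65.9 and 59.00 CPM in knockdown ectoderm, 10.52, 8.08 and 10.6 CPM in nontargeting ectoderm and 12.3, 9.27 and 12.6 CPM in primed cells. The knockdown libraries stood above the other 6, which overlapped (log2 2.46 ± 0.13 against primed cells and 2.71 ± 0.13 against nontargeting ectoderm; edgeR adjusted p = 2.63e-16 and 3.67e-16). BTG2, an antiproliferative factor, was at 24.9, 24.4 and 25.9 CPM in knockdown ectoderm, 5.04, 3.99 and 4.67 CPM in nontargeting ectoderm and 4.19, 6.404 and 3.403 CPM in primed cells. GDF15, a stress-induced cytokine, was at 9.96, 7.05 and 6.92 CPM in knockdown ectoderm, 0.296, 0.998 and 0.509 CPM in nontargeting ectoderm and 0.838, 0.818 and 0.552 CPM in primed cells. Both had the knockdown libraries alone at the top. MDM2, which degrades p53, was at 110.5, 102 and 107 CPM in knockdown ectoderm, 53.3, 44.9 and 49.4 CPM in nontargeting ectoderm and 58.9, 64.2 and 51.2 CPM in primed cells, and ZMAT3, an RNA-binding target, was higher than in primed cells by log2 1.42 ± 0.12. PLK3 was the target not called against primed cells (log2 −0.12), and FAS and TP53INP1 were those not called against nontargeting ectoderm.

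The amino acid stress response moved in the same way, with 12 of 12 genes called higher in knockdown ectoderm than in primed cells (median log2 change 1.26) and 12 of 12 higher than in nontargeting ectoderm (median 1.42). Nontargeting ectoderm had 2 higher and 5 lower than primed cells (30.1% and 30.4% of all genes), with a median of −0.14. Over all genes, 25.9% were called higher in knockdown ectoderm than in primed cells and 16.5% higher than in nontargeting ectoderm. SESN2 stands in both this list and that of p53 targets and is counted in each. The pathway raises amino acid transport and synthesis through the factor ATF4, whose own mRNA was also called, at 448 ± 14.5 CPM in knockdown ectoderm, 362 ± 29.4 CPM in nontargeting ectoderm and 396 ± 4.797 CPM in primed cells.

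The promoters of ASNS (asparagine synthetase) and CHAC1 (a glutathione-degrading enzyme) are shown because both genes were called and each window holds the ATF4 element. They are the 250 bases before the RefSeq gene start (GRCh38.p14), 5′ to 3′ on the gene's strand, chr7:97872409-97872658 on the minus strand and chr15:40953221-40953470 on the plus strand. Capitals mark the match to TGATGNAA, read on either strand, 68 bases before the start in ASNS and 209 in CHAC1.
ASNS: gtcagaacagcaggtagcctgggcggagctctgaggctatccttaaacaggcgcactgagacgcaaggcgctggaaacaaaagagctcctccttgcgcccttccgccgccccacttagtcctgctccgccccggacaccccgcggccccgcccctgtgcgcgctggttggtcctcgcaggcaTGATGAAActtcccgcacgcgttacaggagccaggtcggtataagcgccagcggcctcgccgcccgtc
CHAC1: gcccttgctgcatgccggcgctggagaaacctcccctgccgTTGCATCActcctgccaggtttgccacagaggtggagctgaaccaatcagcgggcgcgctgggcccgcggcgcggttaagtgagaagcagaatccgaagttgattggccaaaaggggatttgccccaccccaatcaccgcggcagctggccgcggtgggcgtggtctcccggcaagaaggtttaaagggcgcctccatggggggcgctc
The motif was found in 3.19% of 27305 promoters of this length and in 3 of the 11 amino acid stress genes with an entry, ATF3 being the other. A match describes the letters and is not evidence of binding.

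ASNS was at 5.41, 6.32 and 4.13 CPM in knockdown ectoderm, 1.63, 0.698 and 1.02 CPM in nontargeting ectoderm and 0.838, 2.18 and 0.736 CPM in primed cells. CHAC1 was at 52.6, 37.6 and 38.4 CPM in knockdown ectoderm, 19.1, 13.8 and 13.7 CPM in nontargeting ectoderm and 13.9, 11.2 and 15.4 CPM in primed cells. For both, the knockdown libraries lay above the other 6 (log2 2.17 ± 0.41 and 1.65 ± 0.15 against primed cells; edgeR adjusted p = 5.38e-05 and 1.24e-10). SLC7A11, the cystine transporter, was at 110.5, 135 and 123 CPM in knockdown ectoderm, 24.7, 31.7 and 33.4 CPM in nontargeting ectoderm and 33.7, 33.2 and 33.8 CPM in primed cells. PSAT1, a serine synthesis enzyme, was at 806, 807 and 827 CPM in knockdown ectoderm, 316, 317 and 338 CPM in nontargeting ectoderm and 292, 288 and 299 CPM in primed cells. Both were higher in all 3 knockdown libraries than in the other 6 (log2 1.87 ± 0.10 and 1.47 ± 0.05 against primed cells, 2.02 ± 0.10 and 1.33 ± 0.05 against nontargeting ectoderm). SLC7A5, a transporter of large neutral amino acids, was at 493, 419 and 412 CPM in knockdown ectoderm, 84.9, 74.4 and 72.7 CPM in nontargeting ectoderm and 379.6, 377 and 346 CPM in primed cells, where nontargeting ectoderm was the low group (log2 2.52 ± 0.07 for the knockdown against it).

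Genes of the actin cytoskeleton and of the serum response factor (SRF) were another group higher in knockdown ectoderm. Of 15 members 14 passed the filter. In knockdown ectoderm 9 were called higher and 3 lower than in primed cells (25.9% and 25% of all genes). Their median log2 change was 0.46. Without knockdown replicate 2 or 3, 1 was lower. Nontargeting ectoderm gave 2 higher (1 without nontargeting ectoderm replicate 2 or primed replicate 3) and 11 lower, with a median of −0.71. The shares over all genes were 30.1% and 30.4% there. Against nontargeting ectoderm 13 were higher and 0 lower in the knockdown (16.5% and 13.5% of all genes), with a median of 1.22.

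Promoters of ACTC1 (cardiac actin) and ACTA1 (skeletal actin) are shown since each holds a CArG box, the binding motif of SRF. Both are the 250 bases before the RefSeq start on the minus strand of GRCh38.p14, at chr15:34795550-34795799 and chr1:229434095-229434344. Capitals mark the CArG box, searched on both strands, 109 bases before the start in ACTC1 and 97 in ACTA1.
ACTC1: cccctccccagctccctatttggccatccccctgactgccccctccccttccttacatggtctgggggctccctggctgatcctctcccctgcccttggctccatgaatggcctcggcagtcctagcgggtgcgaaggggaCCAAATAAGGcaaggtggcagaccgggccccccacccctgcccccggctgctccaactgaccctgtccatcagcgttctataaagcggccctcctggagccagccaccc
ACTA1: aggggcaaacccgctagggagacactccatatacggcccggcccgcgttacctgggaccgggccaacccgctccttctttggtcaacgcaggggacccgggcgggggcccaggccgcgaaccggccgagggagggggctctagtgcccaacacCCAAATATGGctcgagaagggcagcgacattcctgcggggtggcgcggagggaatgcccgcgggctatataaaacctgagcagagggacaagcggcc
A CArG box was present in 1.14% of 27305 promoters and in 4 of the 11 actin and SRF genes with an entry, with CNN2 and SRF as the others.

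ACTC1 was at 18.98, 16.6 and 17.6 CPM in knockdown ectoderm, 1.78, 3.39 and 1.61 CPM in nontargeting ectoderm and 9.59, 9.27 and 8.83 CPM in primed cells. ACTA1 was at 16.3, 9.02 and 8.47 CPM in knockdown ectoderm, 0, 0 and 0.0849 CPM in nontargeting ectoderm and 18.8, 18.8 and 15.1 CPM in primed cells. ACTC1 was thus highest in the knockdown (log2 0.94 ± 0.19 against primed cells; edgeR adjusted p = 0.000106), while ACTA1 had overlapping knockdown and primed libraries. The ACTA1 call against primed cells (log2 −0.64 ± 0.21; edgeR adjusted p = 0.0109) was lost without knockdown replicate 2 (0.0837) or 3 (0.0755), without primed replicate 1 (0.0541) and with GC and length trends removed (0.0959). A single ACTA1 count in nontargeting ectoderm gave a ratio of 321 for the knockdown, with a counting interval of 57.2 to 12702. TAGLN (transgelin), an actin-bundling protein, was at 119, 107 and 112 CPM in knockdown ectoderm, 11.4, 11.9 and 12.8 CPM in nontargeting ectoderm and 45, 49.7 and 41.02 CPM in primed cells. MYL9, a myosin light chain, was at 179, 167 and 193 CPM in knockdown ectoderm, 36.7, 37.6 and 40.4 CPM in nontargeting ectoderm and 46.98, 47.6 and 50.03 CPM in primed cells. CCN2, a matricellular protein, was at 78.2, 80.6 and 73.98 CPM in knockdown ectoderm, 9.93, 9.18 and 12.9 CPM in nontargeting ectoderm and 48.4, 52.1 and 49.3 CPM in primed cells. In these 3 genes knockdown ectoderm was above and nontargeting ectoderm below primed cells, without overlap, with log2 3.22 ± 0.10, 2.23 ± 0.08 and 2.84 ± 0.11 between the day 2 groups (edgeR adjusted p = 9.05e-21, 9.06e-20 and 2.4e-18). TPM1, a tropomyosin, was higher than in primed cells in both ectoderm groups, at 859 ± 32.7 CPM in knockdown ectoderm, 515 ± 39.9 CPM in nontargeting ectoderm and 227 ± 3.296 CPM in primed cells, and CCN1, a relative of CCN2, was lower in both (log2 −0.83 and −2.38).

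**Figure D3:**
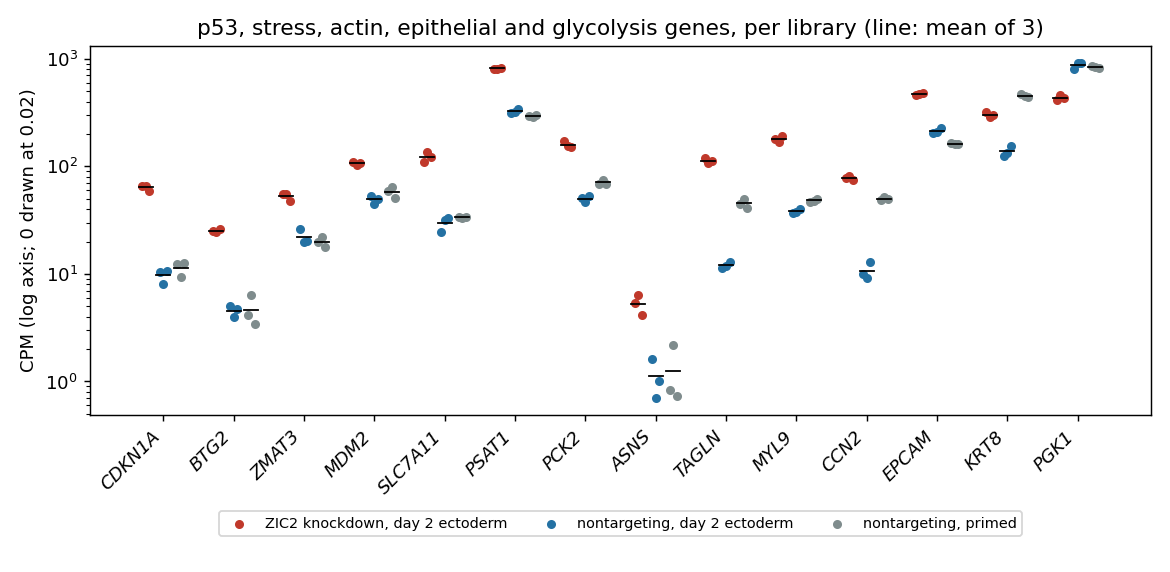
CPM of 14 genes of the p53, amino acid stress, actin, epithelial and glycolysis lists on a log axis, 1 point per library in 3 groups with a line at the mean of 3. From CDKN1A to MYL9, and for CCN2 and EPCAM, the 3 knockdown ectoderm libraries lie above the other 6, KRT8 in the knockdown lies between the other groups, and PGK1 is lowest in the knockdown.

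Glycolysis and hypoxia genes were lower in knockdown ectoderm than in primed cells. Of 14 members 13 were tested, with 1 called higher and 11 lower and a median log2 change of −0.94, against 1 higher, 10 lower and −1.06 in nontargeting ectoderm. The shares over all genes were 25.9% and 25% in knockdown ectoderm and 30.1% and 30.4% in nontargeting ectoderm. In the direct comparison, 5 glycolysis and hypoxia genes were higher and 4 lower in the knockdown (16.5% and 13.5% of all genes). PGK1, a glycolytic kinase, was at 411, 462 and 435 CPM in knockdown ectoderm, 806, 916 and 919 CPM in nontargeting ectoderm and 853, 837 and 826 CPM in primed cells. The knockdown was lower than primed cells for PGK1 by log2 −0.94 ± 0.06, nontargeting ectoderm was not called at 0.07 ± 0.06, and the day 2 groups differed by log2 −1.02 ± 0.06 (edgeR adjusted p = 5.59e-15). LDHA, which makes lactate, was at 331, 347 and 311 CPM in knockdown ectoderm, 602, 613 and 596 CPM in nontargeting ectoderm and 1019, 971 and 1034 CPM in primed cells. PDK1 and BNIP3, targets of the hypoxia factors, were also lower in knockdown than in nontargeting ectoderm, by log2 −1.25 and −0.93. SLC2A1, the glucose transporter, ran the other way, at 146 ± 16.1 CPM in knockdown ectoderm, 79.9 ± 5.66 CPM in nontargeting ectoderm and 296 ± 6.06 CPM in primed cells. VEGFA, the angiogenic ligand, was the member called higher than in primed cells, at 104, 96.3 and 106 CPM in knockdown ectoderm, 35.9, 31.5 and 32.9 CPM in nontargeting ectoderm and 43.4, 42.8 and 41.1 CPM in primed cells.

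Cholesterol synthesis genes were lower in both ectoderm groups than in primed cells. All 14 sterol genes were tested, with 0 called higher and 13 lower in knockdown ectoderm (median log2 change −0.69) and 0 higher and 12 lower in nontargeting ectoderm (median −0.53). The shares over all genes were 25.9% and 25% in knockdown ectoderm and 30.1% and 30.4% in nontargeting ectoderm. HMGCS1, an early enzyme of the pathway, was at 221, 239 and 217 CPM in knockdown ectoderm, 231, 233 and 252 CPM in nontargeting ectoderm and 591, 597 and 585 CPM in primed cells. Set against nontargeting ectoderm, 2 were higher and 5 lower in the knockdown (16.5% and 13.5% of all genes). The number higher was 1 without knockdown replicate 1, without nontargeting ectoderm replicate 3 and with GC and length trends removed. HMGCS1 was not called in that comparison, and the interval of its difference was −0.20 to 0.03 on the log2 scale.

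Cell cycle lists were mixed. Over all genes, 25.9% were called higher and 25% lower in knockdown ectoderm than in primed cells, and 16.5% and 13.5% between the day 2 groups. Of 14 S phase genes 5 were called higher and 5 lower in knockdown ectoderm than in primed cells, with a median of 0.08, and of 12 mitosis genes 8 were higher and 2 lower, with a median of 0.27. Between the day 2 groups 1 S phase gene was higher and 5 lower, and 1 mitosis gene was higher and 6 lower in knockdown ectoderm, with medians of −0.15 and −0.16. With GC and length trends removed, 0 mitosis genes were higher and 3 lower in that comparison, and 1 was lower than in primed cells. The S phase count of higher genes was then 0, and it was 2 without knockdown replicate 2 or 3, without nontargeting ectoderm replicate 3, with the replicate block and with no filter on low counts. BUB1, a spindle checkpoint kinase, was at 623, 672 and 703 CPM in knockdown ectoderm, 766, 734 and 686 CPM in nontargeting ectoderm and 205, 208 and 211 CPM in primed cells. TOP2A, a topoisomerase of dividing cells, was at 956 ± 38.2 CPM in knockdown ectoderm, 1307 ± 21.9 CPM in nontargeting ectoderm and 717 ± 14.5 CPM in primed cells. CDT1, a replication licensing factor, was at 74.3, 40.9 and 40.3 CPM in knockdown ectoderm, with replicate 1 apart from the others, 40.4, 35.2 and 45.1 CPM in nontargeting ectoderm and 81.2, 79.7 and 85.2 CPM in primed cells. Of 7 DNA methylation genes tested of 8, 3 were higher and 3 lower than in primed cells. DNMT3B, the main new-methylation enzyme of stem cells, was at 1562 ± 25.9 CPM in knockdown ectoderm, 1551 ± 77.4 CPM in nontargeting ectoderm and 2239 ± 40.9 CPM in primed cells, and TET2, which oxidises methylcytosine, at 9.11 ± 2.11 CPM in knockdown ectoderm, 15.4 ± 4.75 CPM in nontargeting ectoderm and 1.72 ± 0.347 CPM in primed cells. The TET2 difference between the day 2 groups (log2 −0.74; edgeR adjusted p = 0.0102) was lost without knockdown replicate 2 (0.0658) or nontargeting ectoderm replicate 1 (0.0893).

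Cadherin and epithelial genes, all 12 tested, gave 7 higher and 4 lower in knockdown ectoderm than in primed cells, and 6 higher and 2 lower than in nontargeting ectoderm. The shares over all genes were 25.9% and 25% against primed cells and 16.5% and 13.5% between the day 2 groups. FN1 (fibronectin) was at 131, 146 and 129 CPM in knockdown ectoderm, 109, 122 and 118 CPM in nontargeting ectoderm and 525, 542 and 523 CPM in primed cells, and its small difference between the day 2 groups (log2 0.22) was lost without knockdown replicate 2 (log2 0.16, adjusted p = 0.0862). ESRP2, a splicing factor of epithelia, was lower than in primed cells and higher than in nontargeting ectoderm (log2 −0.42 and 1.14). CDH11 was higher than in primed cells in both ectoderm groups (log2 1.48 in the knockdown and 1.69 in nontargeting ectoderm).

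**Figure D4:**
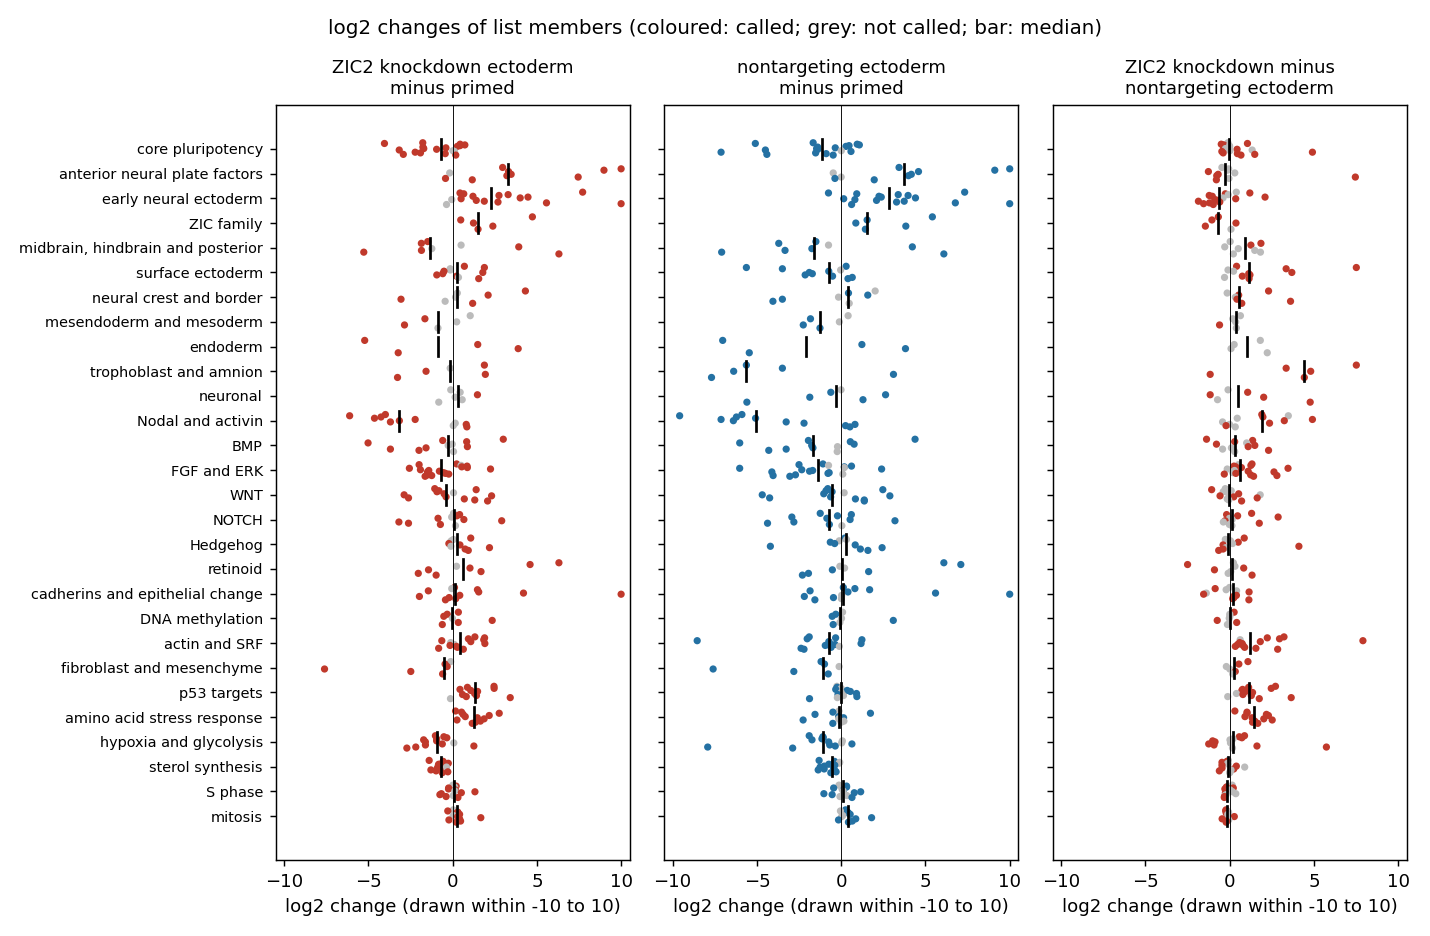
log2 change of every tested member of 28 gene lists in 3 comparisons, 1 point per gene (coloured where called, grey where not, drawn within −10 to 10) with a bar at each list's median. In the left panel the anterior neural plate, early neural ectoderm, p53 and amino acid stress lists have medians of 3.27, 2.29, 1.31 and 1.26 and the Nodal list −3.16; in the right panel the p53, amino acid stress and actin lists lie at 1.12, 1.42 and 1.22.

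The genes with the largest rises over primed cells in knockdown ectoderm, among called genes averaging 5 CPM or more over the 6 libraries compared whose libraries did not overlap, were led by neural ectoderm genes described above and by several others. GREB1L, a coregulator of development, was at 211, 216 and 235 CPM in knockdown ectoderm, 315, 303 and 307 CPM in nontargeting ectoderm and 0.0761, 0.136 and 0 CPM in primed cells. PKDCC, a secreted kinase, was at 826, 735 and 749 CPM in knockdown ectoderm, 646, 594 and 595 CPM in nontargeting ectoderm and 15.7, 15.5 and 16.2 CPM in primed cells. MAP2, a dendritic microtubule protein, was at 206, 209.8 and 227 CPM in knockdown ectoderm, 212, 208 and 194 CPM in nontargeting ectoderm and 6.09, 8.18 and 6.25 CPM in primed cells. The 2 primed counts of GREB1L put its ratio at 3449, with a counting interval of 954 to 28482, and the rises of PKDCC and MAP2 were log2 5.60 ± 0.07 and 5.00 ± 0.09. MAP2 was not called between the day 2 groups, PKDCC was higher in the knockdown by log2 0.33 and GREB1L lower by log2 −0.48, and the PKDCC difference turned to −0.09 with GC and length trends removed. ZEB2, SIX3, LHX5, SOX1 and CYP26A1 met the same rule, as did the noncoding LHX5-AS1, from the LHX5 locus, and LINC01833, at 30.9 CPM in knockdown ectoderm, 30.5 CPM in nontargeting ectoderm and 0.148 CPM in primed cells.

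The 10 largest falls against primed cells by the same rule were in genes of several kinds. LINC-ROR, a noncoding RNA of pluripotent cells, was at 0, 1.23 and 0 CPM in knockdown ectoderm, 0, 0.0998 and 0 CPM in nontargeting ectoderm and 26.8, 25.9 and 26.9 CPM in primed cells. Of 15 LINC-ROR counts in knockdown ectoderm all came from replicate 2, against 1 count in nontargeting ectoderm, for a ratio of 13.2 with a counting interval of 2.03 to 556. The call between those groups (edgeR adjusted p = 0.0446) was lost without knockdown replicate 2, where the log2 difference turned to −1.93 (adjusted p = 0.480), and without any of the nontargeting ectoderm or primed libraries (0.0526 to 0.148). LINC01108 was at 0.0949, 2.296 and 0.3100 CPM in knockdown ectoderm and 47.7, 46.6 and 50.6 CPM in primed cells, again with replicate 2 highest. NTS (neurotensin) was at 1.14, 3.12 and 2.38 CPM in knockdown ectoderm, 0, 0.0998 and 0.424 CPM in nontargeting ectoderm and 68.9, 66.5 and 67.2 CPM in primed cells. EDNRB, an endothelin receptor, was at 1.42, 3.28 and 4.24 CPM in knockdown ectoderm, 2.52, 1.497 and 2.46 CPM in nontargeting ectoderm and 83.6, 71.8 and 74.3 CPM in primed cells. Both were far lower than in primed cells, by log2 −4.90 ± 0.19 and −4.69 ± 0.18, and NTS was still higher in knockdown than in nontargeting ectoderm (log2 3.35 ± 0.51). The metallothionein gene MT1X, which buffers metals, was lowest in the knockdown, at 1.803, 2.38 and 1.76 CPM there, 4.296, 5.99 and 5.01 CPM in nontargeting ectoderm and 54.7, 48.9 and 62.5 CPM in primed cells. MT1G, ID1, LINC02700, D21S2088E and GNA14 completed the 10 largest falls, at log2 −5.35, −5.01, −4.86, −4.84 and −4.68.

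Between the day 2 groups, the largest differences by the same rule lay in genes of several kinds. NPTX1, a neuronal pentraxin, was at 11.01, 12.1 and 12.2 CPM in knockdown ectoderm, 191, 165 and 170.1 CPM in nontargeting ectoderm and 6.62, 5.45 and 6.53 CPM in primed cells. FLRT3, a membrane protein that modulates FGF signalling and adhesion, was at 7.97, 8.61 and 7.34 CPM in knockdown ectoderm, 49.04, 50.3 and 47.1 CPM in nontargeting ectoderm and 1.37, 2.59 and 0.552 CPM in primed cells. Both were raised in nontargeting ectoderm and less so in the knockdown (log2 −3.90 ± 0.10 and −2.61 ± 0.17 between the day 2 groups; edgeR adjusted p = 1.56e-23 and 1.69e-13). DRD2, a dopamine receptor, was at 0.569, 1.23 and 0.6200 CPM in knockdown ectoderm, 9.63, 9.18 and 8.91 CPM in nontargeting ectoderm and 0.685, 0.273 and 1.01 CPM in primed cells, and knockdown and primed libraries overlapped. Against primed cells DRD2 was not called in the knockdown (log2 0.25 ± 0.49; edgeR adjusted p = 0.703). The other 3 of the 6 largest decreases by this rule, GRM3, THSD7B and VIPR2, were lower than in nontargeting ectoderm by log2 −2.74, −2.62 and −2.23.

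Of the 6 largest increases over nontargeting ectoderm by the same rule, TDGF1 and ACTA1 are described above. ANXA1, a membrane-binding annexin, was at 22.02, 21.6 and 21.3 CPM in knockdown ectoderm, 0.148, 0.0998 and 0 CPM in nontargeting ectoderm and 3.05, 1.91 and 1.29 CPM in primed cells, and its ratio to nontargeting ectoderm, with 2 counts, was 309 with a counting interval of 85.2 to 2555. EDN1 (endothelin 1) was at 32.6, 28.8 and 33.3 CPM in knockdown ectoderm, 3.11, 1.497 and 2.38 CPM in nontargeting ectoderm and 1.22, 0.545 and 1.196 CPM in primed cells. SPP1 (osteopontin) was at 113, 125 and 134 CPM in knockdown ectoderm, 7.85, 11.9 and 7.64 CPM in nontargeting ectoderm and 73.8, 60.2 and 66.9 CPM in primed cells. The knockdown libraries were the highest of the 9 for all 3 genes. SERPINB9, an inhibitor of granzyme B, was at 23.1, 28.4 and 14.4 CPM in knockdown ectoderm, 1.48, 0.798 and 1.27 CPM in nontargeting ectoderm and 255, 264 and 264 CPM in primed cells, so it stayed far above nontargeting ectoderm (log2 4.25 ± 0.24) and below primed cells (log2 −3.55 ± 0.12).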

How the data were processed

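RNA was prepared on columns and made into stranded polyadenylated RNA libraries, per the labels' protocols. Reads were aligned with HISAT2 to GRCh38, per the submitters' processing notes. The sources used here do not name the counting tool or its settings, so these are not given. The authors deposited a table of raw counts for 60671 genes with a gene length column, and 27 further columns of that table were not used. The 9 libraries used held 6756704 to 13175677 counts, and counting intervals and floors cover counting error only.

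Counts were filtered with filterByExpr, scaled by TMM and fitted with edgeR 4.0.16 (R 4.3.3, limma 3.58.1) in 1 quasi-likelihood model of 3 groups, with 6 residual degrees of freedom and Benjamini-Hochberg adjustment over 15867 genes. DESeq2 1.42.0 was an alternative. CPM are TMM-scaled, RPKM divide them by the deposited length, and intervals are 95% intervals. The procedure was tested on simulated data. Groups came from the labels, and the replicate numbers did not pair the samples. Gene positions are those of GENCODE 29. Genes with zero counts in a group were set against a floor of 3 counts.

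Named genes were ZIC2, the 10 largest called rises and 10 largest falls against primed cells and 6 of each against nontargeting ectoderm (mean of at least 5 CPM over the 6 libraries compared, libraries of the groups not overlapping), and, from every list, the few members whose adjusted p was lowest. Other list members were named for their role, and a few are not reported here. The gene sets and lists were chosen with earlier results of these data known. The alternatives tried were a replicate block, size factors in place of TMM, DESeq2, no low-count filter, only the 2 groups compared, 18 H1 libraries in 1 fit, removal of GC and length trends, and each library left out in turn.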

Additional observations from a re-analysis of the deposited data

Results flagged for a closer look

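For 28 genes, named by the rule or members of the lists, the 2 ectoderm groups were called in opposite directions against primed cells, with a call between the day 2 groups also required. Only named genes and list members were searched. The number over all tested genes was not counted, so the 28 and their directions describe the genes searched and no more. Over all genes, 51% were called against primed cells in knockdown ectoderm and 60.5% in nontargeting ectoderm. The direct difference is that between the 2 changes against the same primed libraries. Its call therefore largely follows from opposite calls and is not separate support. Higher in knockdown ectoderm and lower in nontargeting ectoderm than in primed cells were 24 of the 28 genes. In the direct test, the fitted log2 differences between the day 2 groups were 3.75 for SPP1, 0.67 for PODXL, 1.19 for SOX3, 1.32 for FGF2 and 0.47 for NOTCH3. Among epithelial and cytoskeletal genes they were 3.68 for GRHL3, 0.75 for KRT19, 2.95 for ACTC1, 2.23 for MYL9, 3.22 for TAGLN, 1.81 for CNN1, 0.88 for VCL and 2.84 for CCN2. MDM2 differed by 1.12, RRM2B by 0.76 and BAX by 0.78. ATF3 differed by 1.02, TRIB3 by 2.18, PCK2 by 1.66, PHGDH by 0.90, SLC7A5 by 2.52 and VEGFA by 1.62. The fitted values of 8.04 for ANXA1 and 7.51 for GATA3 depend on the prior count, because nontargeting ectoderm held 2 and 0 counts of them.

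Lower in knockdown ectoderm and higher in nontargeting ectoderm than in primed cells were PDK1, at −1.25 between the day 2 groups, the glutamate receptor gene GRM3, THSD7B and the peptide receptor gene VIPR2, at −2.74, −2.62 and −2.23. GRM3 averaged 2.65 CPM in knockdown ectoderm, 17.8 CPM in nontargeting ectoderm and 4.50 CPM in primed cells. The call of GRM3 against primed cells was lost without knockdown replicate 1 (adjusted p = 0.056) or 3 (0.0668) or primed replicate 2 (0.0948). That of VIPR2 was lost without knockdown replicate 1 (0.0714) or 3 (0.0848), without primed replicate 2 (0.0763) or 3 (0.0749), and with GC and length trends removed (0.0714). NOTCH3 lost its call against primed cells without knockdown replicate 1 (0.101) or primed replicate 2 (0.0537), and its call between the day 2 groups with GC and length trends removed (log2 0.05, adjusted p = 0.582). The FGF2 call against primed cells was lost without knockdown replicate 2 (0.0812) and with those trends removed (0.631), and that of KRT19 without knockdown replicate 1 (0.148) or primed replicate 3 (0.108).

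For nontargeting ectoderm against primed cells, removing GC and length trends turned the direction of NOTCH3 (log2 0.49, adjusted p = 1.14e-08) and BAX (log2 0.17, adjusted p = 0.0445), both then called higher. It also ended the calls of MYL9 (log2 0.15), PCK2 (0.05), KRT19 (0.08), SOX3 (−0.02), PHGDH (−0.09) and VEGFA (−0.18). The same comparison lost the call of NOTCH3 without nontargeting ectoderm replicate 2 or 3 or primed replicate 1 or 3, and of MDM2 without nontargeting ectoderm replicate 2 or primed replicate 1 or 2. PHGDH lost it without nontargeting ectoderm replicate 1 or 2 or primed replicate 1 or 2. BAX lost it without knockdown replicate 2, nontargeting ectoderm replicate 2 or 3 or any primed library, and with no filter on low counts.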

How the results depend on the processing

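The counts of called genes stayed within 1.5 times of the values given under every alternative run. For knockdown ectoderm against primed cells, leaving out 1 library in turn gave 3624 to 4285 genes higher and 3479 to 4136 lower. For nontargeting ectoderm against primed cells it gave 4253 to 4911 higher and 4453 to 5072 lower, and between the day 2 groups 2179 to 2522 higher and 1653 to 2046 lower. The replicate numbers did not pair the samples, since same-numbered libraries correlated at −0.052 to 0.0242 and differently numbered ones at −0.0411 to 0.0614. With the replicate number as a block, 4154 genes were higher and 4018 lower in knockdown ectoderm than in primed cells, 4784 and 4843 in nontargeting ectoderm, and 2645 and 2184 between the day 2 groups.

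Of 163 named genes, 151 kept their side of the threshold against primed cells under every alternative in which they were tested, and 132 did between the day 2 groups. Between the day 2 groups the direction turned for PKDCC with GC and length trends removed (−0.0906) and for LINC-ROR without knockdown replicate 2 (−1.929), and the cause was not tested. Over all libraries left out in turn, the LINC-ROR difference ranged over −1.929 to 5.276. Replicates of unknown origin, 3 per group, and counts near 0 limit the precision of the low genes.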
